A study of Mus musculus with 12 samples.

Results

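The proapoptotic side of the BCL2 family was followed in leukemic mouse cells through 9 genes. The list held the BH3-only genes *Bcl2l11*, *Bbc3*, *Pmaip1*, *Bid*, *Bad*, *Bmf* and *Bik* and the effector genes *Bax* and *Bak1*, and members were taken by symbol from the deposited expression table whatever their values. Of the 9, 8 were among the 15651 genes of the table. *Bik* was not analysed here.

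BCL2 family proteins control the release of cytochrome c and other factors from mitochondria, the step that commits a cell to intrinsic apoptosis. BAX and BAK, the effectors, form pores in the outer mitochondrial membrane. Prosurvival members such as BCL2, MCL1 and BCL-xL hold the effectors and the BH3-only proteins in check. BH3-only proteins carry stress signals: BIM (from *Bcl2l11*), PUMA (*Bbc3*) and BID can also engage the effectors directly, whereas BAD, BMF and NOXA (*Pmaip1*) mainly occupy prosurvival partners. In myeloid cells BIM is known for its part in death after withdrawal of cytokines, and BCL2 is the target of venetoclax, a drug that mimics a BH3 domain.

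RNA was measured in c-Kit+ splenocytes, selected with CD117 microbeads from moribund C57BL6/J mice with acute myeloid leukemia (AML). *D/F* mice carried Dnmt3a fl/fl, Flt3 ITD/ITD and Mx1-Cre, and *T/F* mice carried Tet2 fl/fl, Flt3 ITD/ITD and Mx1-Cre, so the Flt3 internal tandem duplication was common to all groups. Mx1-Cre is driven by an interferon-responsive promoter, was not induced, and deleted 1 or both floxed alleles spontaneously. Cells from 3 mice per genotype were divided between CCS1477 (inobrodib), which binds the bromodomains of the acetyltransferases p300 and CBP, and DMSO, and were cultured for 6 h in medium with serum, SCF, IL6 and IL3, which made 12 libraries in 4 groups of 3. CCS1477 was used at 4 μM for *D/F* and 2 μM for *T/F* cells, so genotype and dose cannot be told apart in any difference between the responses. The ages of the mice were not used here.

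Expression was given as TPM, a length-normalized share of the RNA of a library, so that the number of reads behind a value is unknown. Because each value is a share of bulk RNA, fewer cells of a type and less RNA per cell cannot be told apart. Total *Dnmt3a* transcript spanned 29.3 to 55.7 TPM in *D/F* and 39.9 to 53.9 TPM in *T/F* cells with DMSO, and *Tet2* spanned 38.3 to 43.4 and 30.0 to 35.8 TPM. The *Dnmt3a* ranges overlapped and those of *Tet2* did not, and a level for the whole gene does not show whether a floxed exon was lost. *Kit*, which defines the selected cells, was at 50.5 TPM or more in all 6 DMSO libraries. *D/F* replicate 2 stood apart: its libraries were correlated at 0.947 to 0.958 with the other libraries of their group (Pearson's r across genes), against 0.979 and 0.983 between replicates 1 and 3. With DMSO this mouse had 1163 TPM of the granule gene *Mpo*, against 3673 and 2646 TPM, and 447 TPM of *Cd34*, against 110 and 138 TPM.

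The 8 proapoptotic transcripts differed widely in level in DMSO-treated cells. *Bak1* (138 ± 28.8 TPM in *D/F* and 145 ± 7.98 TPM in *T/F*, SD, n = 3) and *Bax* (92.4 ± 16.7 and 105 ± 8.57 TPM) were highest, followed by *Bid* (68.5 ± 11.4 and 62.6 ± 6.06 TPM). *Bcl2l11*, *Pmaip1* and *Bad* had means of 25.2 to 50.3 TPM. *Bmf* (10.5 ± 8.64 and 12.3 ± 6.75 TPM) and *Bbc3* (7.73 ± 4.51 and 5.53 ± 1.05 TPM) were lowest. The ranges of *Bcl2l11* and *Pmaip1* overlapped in both genotypes, as did those of *Bmf* and *Bbc3*, and *Bad* overlapped *Pmaip1* in *D/F*, so those neighbors had no clear order. *Bid* was above *Bcl2l11* in every *D/F* library with DMSO and overlapped it in *T/F*. *Bak1* was above *Bax* in every library with DMSO in both genotypes. Their ranges overlapped only in *D/F*, where the lowest *Bak1* value (105 TPM) and the highest *Bax* value (111 TPM) came from different mice. Among all genes, *Bak1* lay at percentile 93.0 and *Bbc3* at percentile 33.2 in *D/F* cells with DMSO.

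With CCS1477, members of this set changed in opposite directions. Over both genotypes *Bcl2l11*, *Bbc3* and *Bad* rose and *Bid*, *Bak1* and *Pmaip1* fell, each in all 6 mice, while *Bmf* and *Bax* did not pass the test. These calls are at an adjusted p under 0.05 from limma on log2(TPM + 1), adjusted over all genes tested (n = 6 mice). The 3 of 8 that rose compare with 25.8% of 15583 genes called higher, and the 3 of 8 that fell compare with 19.6% called lower. In a fit with the mouse as a block, which compares the cells of 1 mouse with each other, the counts were again 3 and 3, against 34.5% and 25.9% of all genes. The median log2 fold change was 0.10 over the 8 members and 0.07 over all genes. No member reached a 2-fold change over both genotypes. Of the 6 calls, 3 were left without *D/F* replicate 1 (6246 of 15622 genes called) or without *D/F* replicate 3 (6050 of 15632). Without *D/F* replicate 2, 5 were left (8546 of 15431 genes called). Without *T/F* replicate 1, 2 or 3, 4 were left (5660 of 15582, 5683 of 15586 and 5775 of 15573 genes called).

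**Figure D1:**
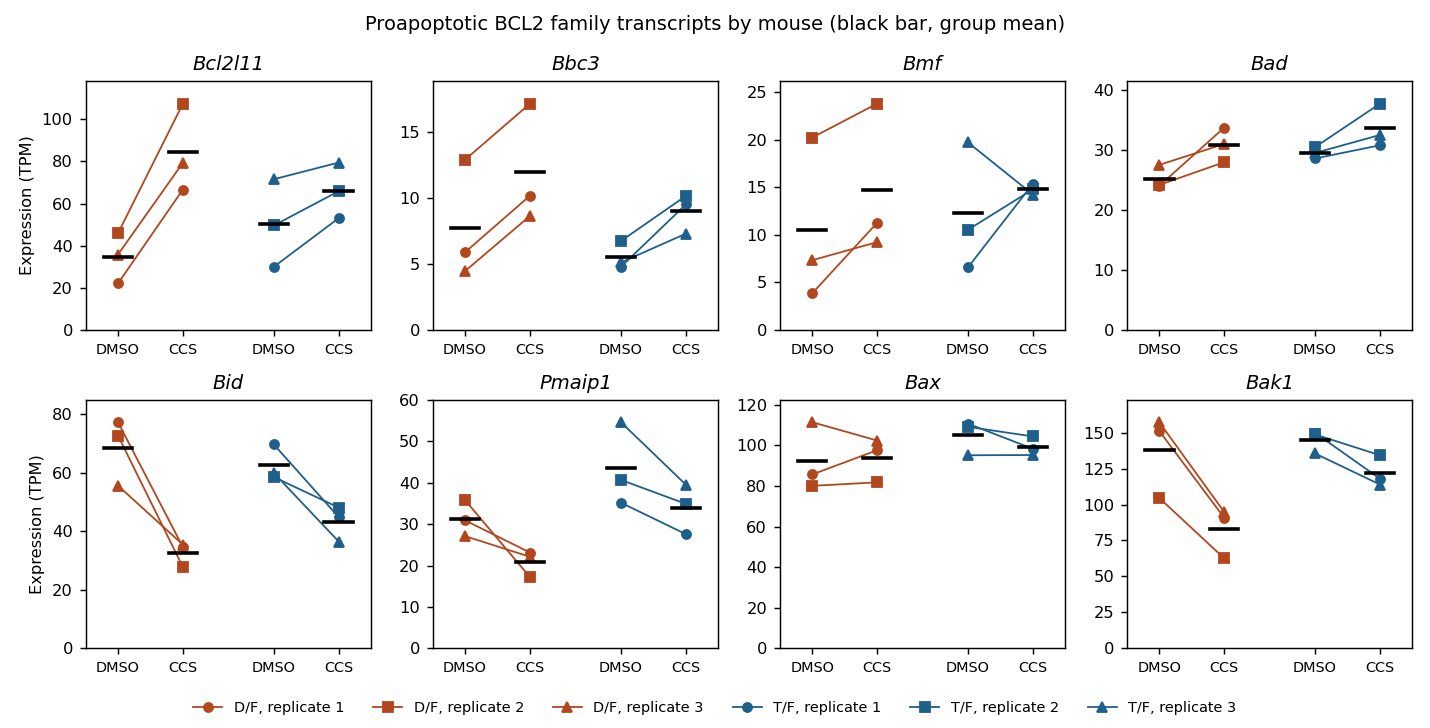
Expression (TPM, y axis from 0) of the 8 proapoptotic transcripts with DMSO and CCS1477 (CCS), 1 line per mouse and 1 marker shape per replicate, with the group mean as a black bar. *Bcl2l11* in *D/F* moved from between 22.1 and 45.9 TPM to between 66.6 and 107 TPM, and the lines of *Bid* and *Bak1* point down in all 6 mice.

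*Bcl2l11* (ENSMUSG00000027381, chromosome 2 from 128126038 to 128162547, forward strand) encodes BIM and had the largest rise of the set. *D/F* replicates 1, 2 and 3 held 22.1, 45.9 and 35.8 TPM with DMSO and 66.6, 107 and 79.3 TPM with CCS1477. All 3 CCS1477 libraries lay above all 3 DMSO libraries, and the ratio within a mouse was 3.02, 2.34 and 2.22. The log2 fold change was 1.30 (standard error, SE, 0.31; limma adjusted p = 0.0459, n = 3 mice), and the call was lost with a pseudocount of 0.1 (1.32, adjusted p = 0.0583). With the mouse as a block the *D/F* value passed (SE 0.12, limma adjusted p = 0.00626). In *T/F* the mice went from 30.0, 49.6 and 71.5 TPM to 53.1, 65.9 and 79.5 TPM. Each *T/F* mouse was higher with CCS1477, with ratios of 1.77, 1.33 and 1.11, but the groups overlapped. The log2 fold change of 0.45 (SE 0.33) did not pass (limma adjusted p = 0.310, and 0.0642 with the mouse as a block). Over both genotypes it was 0.87 (95% interval 0.30 to 1.45, limma adjusted p = 0.0179). Without *D/F* replicate 1 or 3 no gene passed in *D/F*, and the adjusted p of *Bcl2l11* from limma was 0.201 and 0.305, with log2 fold changes of 1.17 and 1.38. The value over both genotypes was 0.82 without *D/F* replicate 3 (limma adjusted p = 0.0657).

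FOXO transcription factors are known activators of *Bcl2l11* and *Bbc3*, and *Foxo1* itself rose with CCS1477 in both genotypes, so the promoters of members were searched for the FOXO core motif GTAAACA on both strands. RefSeq promoter windows for GRCm38.p6, each reaching from 250 bases before a transcription start to 50 bases after it, were held for 7 of the 9 members, 13 windows in all. *Bcl2l11* had 1 match in the first of its 2 windows, at chr2:128125788-128126087 on the forward strand, which is shown 5′ to 3′ with the motif in capitals because this gene rose most.
Bcl2l11: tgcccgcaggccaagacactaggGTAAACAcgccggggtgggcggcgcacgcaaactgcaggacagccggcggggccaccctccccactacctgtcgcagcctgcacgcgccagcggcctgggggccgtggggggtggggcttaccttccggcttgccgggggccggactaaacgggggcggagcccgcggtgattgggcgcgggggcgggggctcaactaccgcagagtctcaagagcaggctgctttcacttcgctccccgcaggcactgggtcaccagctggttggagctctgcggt
Counted from the start as 0, the match begins at base -227, and GTAAACA on either strand is held by 3.65% of 32851 windows of the same length over all genes. A match describes the letters only and does not show that a factor was bound. The window is 71.0% G or C, against a median of 52.7% over all windows.

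*Bbc3* (ENSMUSG00000002083, chromosome 7 from 16308393 to 16318205, forward strand), which encodes PUMA, was expressed at a low level and was higher with CCS1477 in all 6 mice. In *T/F* it went from 4.77, 6.72 and 5.10 TPM to 9.49, 10.1 and 7.28 TPM. These groups did not overlap, and the log2 fold change was 0.61 (SE 0.16, limma adjusted p = 0.0259, n = 3 mice). *D/F* mice had 5.87, 12.9 and 4.45 TPM with DMSO and 10.2, 17.1 and 8.63 TPM with CCS1477. Replicate 2 was highest under both treatments, the groups overlapped, and the log2 fold change of 0.63 (SE 0.41) had an adjusted p of 0.344 from limma. That p was 0.0223 with the mouse as a block, and it was 0.0450 in limma without *D/F* replicate 2. Over both genotypes the log2 fold change was 0.62 (limma adjusted p = 0.0420). That call was lost on leaving out any mouse other than *D/F* replicate 2, with log2 fold changes of 0.57 to 0.66 and adjusted p of 0.0566 to 0.126 from limma. In *T/F* the adjusted p was 0.172 without replicate 1 and 0.0599 without replicate 2 (limma), and it was 0.0598 with quantile normalization and 0.218 in a fit of all 4 groups.

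The second of 3 *Bbc3* windows, chr7:16310011-16310310 on the forward strand, also held the FOXO core motif, written here as its reverse complement in capitals. It is shown as the other member with a match, and it begins at base -167.
Bbc3: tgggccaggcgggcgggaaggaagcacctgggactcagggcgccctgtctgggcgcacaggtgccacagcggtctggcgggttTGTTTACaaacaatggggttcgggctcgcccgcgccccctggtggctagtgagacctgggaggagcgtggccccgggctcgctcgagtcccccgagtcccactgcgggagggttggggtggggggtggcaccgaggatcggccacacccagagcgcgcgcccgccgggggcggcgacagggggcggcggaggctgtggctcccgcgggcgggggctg
None of the windows of *Bid*, *Bad*, *Bmf*, *Bax* and *Bak1* held GTAAACA on either strand. *Pmaip1* and *Bik* had no window.

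*Bid* (ENSMUSG00000004446, chromosome 6 from 120891930 to 120916853, reverse strand) had the largest fall. Its protein is cut by caspase-8 and so links death receptors to mitochondria. With DMSO the *D/F* mice had 77.2, 72.6 and 55.5 TPM, and with CCS1477 they had 34.5, 27.8 and 35.4 TPM. The log2 fold change was -1.04 (SE 0.19, limma adjusted p = 0.0241). *T/F* mice went from 69.6, 58.5 and 59.8 TPM to 44.8, 48.1 and 36.4 TPM. The log2 fold change there was -0.53 (SE 0.13, limma adjusted p = 0.0186). All CCS1477 libraries were below all DMSO libraries in both genotypes. *Bid* was the only member called in *D/F* and *T/F* alike, and over both its log2 fold change was -0.79 (95% interval -1.08 to -0.50, limma adjusted p = 0.000602). That call over both genotypes held on leaving out each mouse, with values of -0.89 to -0.67. Within a genotype it was lost, with the direction kept, without *D/F* replicate 1 or 3 (limma adjusted p = 0.231 and 0.199) and without *T/F* replicate 1, 2 or 3 (0.104, 0.0604 and 0.0562). The 3′ part of *Bid* overlaps *Bcl2l13* on the opposite strand over 913 bp, and *Bcl2l13* stayed between 20.0 and 22.9 TPM in all 12 libraries.

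The single *Bid* window, chr6:120916775-120917074 on the reverse strand, is shown because this gene fell most. It is in lower case throughout since neither motif searched was found in it, and the windows of *Bad*, which rose, held neither as well.
Bid: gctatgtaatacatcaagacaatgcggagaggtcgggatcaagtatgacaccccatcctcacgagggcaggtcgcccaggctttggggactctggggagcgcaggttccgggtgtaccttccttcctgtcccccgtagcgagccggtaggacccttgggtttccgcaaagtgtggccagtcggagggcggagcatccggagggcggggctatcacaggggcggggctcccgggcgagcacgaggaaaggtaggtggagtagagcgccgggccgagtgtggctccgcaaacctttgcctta
It holds 63.3% G or C.

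Among the BH3-only members that act mainly on prosurvival partners, *Pmaip1* fell, *Bad* rose slightly and *Bmf* varied between mice. *Pmaip1* (ENSMUSG00000024521, chromosome 18 from 66458533 to 66465565, forward strand) encodes NOXA, a partner of MCL1. *D/F* mice had 30.9, 35.8 and 27.1 TPM with DMSO and 23.2, 17.2 and 22.1 TPM with CCS1477, and *T/F* mice had 35.2, 40.7 and 54.7 TPM and 27.6, 34.9 and 39.6 TPM. The groups did not overlap in *D/F* and overlapped in *T/F*. Log2 fold changes were -0.57 in *D/F* (limma adjusted p = 0.0970), -0.34 in *T/F* (0.225) and -0.45 over both (0.0186). The *T/F* value passed with the mouse as a block (limma adjusted p = 0.0205). Without *D/F* replicate 2, whose ratio of 0.481 was the lowest, the value over both genotypes was -0.34 (limma adjusted p = 0.0508).

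*Bad* (ENSMUSG00000024959, chromosome 19 from 6941861 to 6951899, forward strand), whose protein is held inactive by phosphorylation downstream of growth factor receptors, was higher with CCS1477 in every mouse, by a small amount. It was 24.0, 24.1 and 27.5 TPM with DMSO and 33.7, 27.9 and 31.0 TPM with CCS1477 in *D/F*, and 28.6, 30.5 and 29.5 TPM and then 30.8, 37.7 and 32.5 TPM in *T/F*. In both genotypes the libraries of the treatments were separate, although neither log2 fold change passed alone (0.28 and 0.18, limma adjusted p = 0.262 and 0.162). Over both genotypes it was 0.23 (limma adjusted p = 0.0301), and the call was lost when libraries were rescaled to their median gene (0.19, 0.147) or quantile normalized (0.21, 0.0917). It was also lost without *D/F* replicate 1 or 3 or any 1 of the *T/F* mice, with log2 fold changes of 0.18 to 0.26 and adjusted p of 0.0510 to 0.111 from limma. *Gpr137*, which overlaps *Bad* on the opposite strand over 620 bp, was at 15.3 to 23.7 TPM with DMSO and 21.1 to 28.8 TPM with CCS1477.

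*Bmf* (ENSMUSG00000040093, chromosome 2 from 118528757 to 118549687, reverse strand), whose protein is tethered to the cytoskeleton, varied widely between mice in 3 of the 4 groups. *D/F* values were 3.84, 20.2 and 7.33 TPM with DMSO and 11.3, 23.8 and 9.24 TPM with CCS1477. *T/F* values were 6.58, 10.5 and 19.7 TPM with DMSO and 15.4, 14.8 and 14.2 TPM with CCS1477. It was higher with CCS1477 in 5 of 6 mice and lower in *T/F* replicate 3. The log2 fold change over both genotypes was 0.50 (95% interval -0.30 to 1.29, limma adjusted p = 0.291), an interval that includes changes of more than 2-fold.

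The effectors differed from each other in their values. *Bax* (ENSMUSG00000003873, chromosome 7 from 45461697 to 45466898, reverse strand) was at 85.7, 80.1 and 111 TPM with DMSO and 97.6, 81.8 and 102 TPM with CCS1477 in *D/F*, and at 111, 109 and 95.1 TPM and 98.3, 104 and 95.2 TPM in *T/F*. The groups overlapped in both genotypes. The log2 fold change over both was -0.02, with a 95% interval of -0.23 to 0.19 (limma adjusted p = 0.872). *Gm45808*, which was not analysed here, overlaps *Bax* on the same strand over 915 bp, exons included, so reads from that stretch could belong to either.

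*Bak1* (ENSMUSG00000057789, chromosome 17 from 27019810 to 27029009, reverse strand) was lower with CCS1477 in all 6 mice. It went from 151, 105 and 157 TPM to 90.8, 62.6 and 94.9 TPM in *D/F*, where the ratio within a mouse was 0.601, 0.599 and 0.603. In *T/F* it went from 150, 149 and 135 TPM to 118, 134 and 114 TPM, with ratios of 0.787, 0.903 and 0.841. Its treated and untreated libraries were separate in both genotypes. Log2 fold changes were -0.73 in *D/F* (SE 0.24, limma adjusted p = 0.103) and -0.25 in *T/F* (SE 0.09, adjusted p = 0.0682). Both passed with the mouse as a block (limma adjusted p = 0.00827 and 0.0354), as did the *D/F* value without replicate 2 (0.0224). Over both genotypes the log2 fold change was -0.49 (limma adjusted p = 0.0182), and -0.44 without *D/F* replicate 1 (0.0569). The whole of *Bak1* lies within *Ggnbp1* on the opposite strand, and *Ggnbp1* was at 11.4 to 19.8 TPM in the 12 libraries. The labels name a stranded kit, and the strand setting of the quantification is not given in the sources used here.

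Since *Myc* fell strongly with CCS1477, the same windows were searched for the E-box CACGTG, the site of MYC and its partners. The *Bax* window at chr7:45466849-45467148 on the reverse strand held 2, in capitals, beginning at bases -9 and 35, and is shown because it was the member window with the most E-boxes and *Bax* had the smallest estimate of change.
Bax: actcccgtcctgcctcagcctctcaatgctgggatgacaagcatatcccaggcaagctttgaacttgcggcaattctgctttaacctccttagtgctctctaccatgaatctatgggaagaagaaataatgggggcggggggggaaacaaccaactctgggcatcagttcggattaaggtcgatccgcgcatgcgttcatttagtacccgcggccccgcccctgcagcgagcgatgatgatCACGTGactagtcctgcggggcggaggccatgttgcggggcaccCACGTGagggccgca
CACGTG, which reads the same on both strands, is held by 7.15% of all windows, and among the members also by the third window of *Bbc3*.

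**Figure D2:**
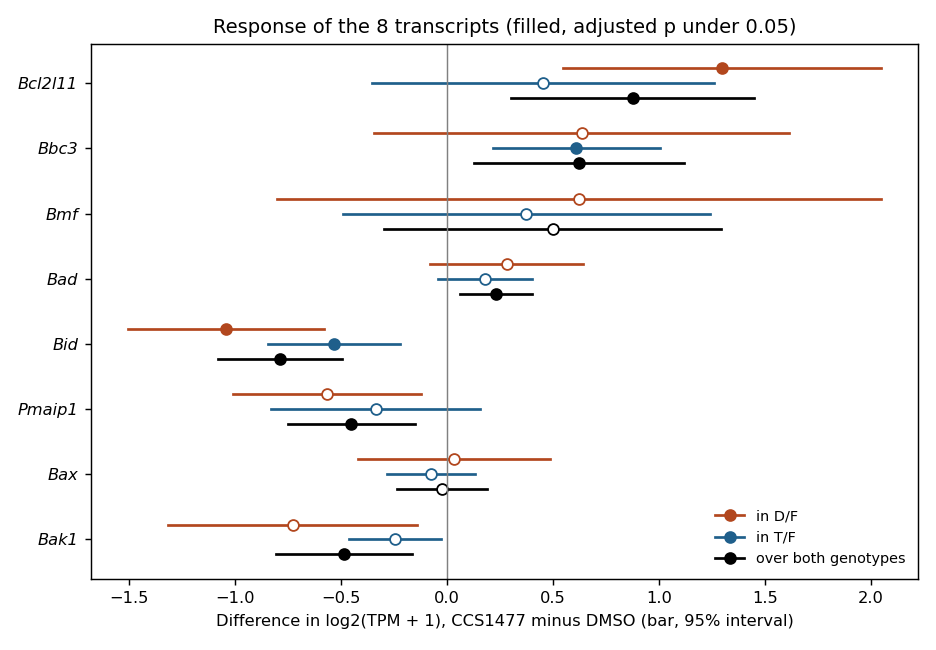
Difference in log2(TPM + 1) between CCS1477 and DMSO (x axis, 0 means no difference) for the 8 transcripts in *D/F* cells, in *T/F* cells and over both genotypes. Points are limma estimates, bars are 95% intervals, and filled points have an adjusted p under 0.05: *Bcl2l11* and *Bid* in *D/F*, *Bbc3* and *Bid* in *T/F*, and 6 transcripts over both.

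Within a genotype, 2 of the 8 members were called in *D/F*, 1 higher (*Bcl2l11*) and 1 lower (*Bid*), when 5.14% of 15501 genes were called higher and 6.51% lower. Both changed by more than 2-fold. With the mouse as a block, 2 were higher (*Bcl2l11* and *Bbc3*) and 2 lower (*Bid* and *Bak1*), against 21.4% and 18% of all genes. Without *D/F* replicate 2 the calls were the same 4 genes, when 3739 of 15191 genes were called. Without replicate 1 or 3 there were 0 calls among all genes. In *T/F*, 1 member was higher (*Bbc3*) and 1 lower (*Bid*), against 25.8% and 17.6% of 15256 genes, and none by more than 2-fold. With the mouse as a block, 1 was higher (*Bbc3*) and 3 lower (*Bid*, *Bak1* and *Pmaip1*), against 31.2% and 22.9%. Leaving out *T/F* replicate 1 or 2 left no member called, when 3473 of 15254 and 3192 of 15253 genes were called. Leaving out replicate 3 left *Bbc3*, when 5122 of 15189 genes were called.

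Counted by groups that do not overlap, 2 members were higher in *D/F* (*Bcl2l11* and *Bad*) and 3 lower (*Pmaip1*, *Bid* and *Bak1*), against 19.9% and 16.7% of all genes. In *T/F* 2 were higher (*Bbc3* and *Bad*) and 2 lower (*Bid* and *Bak1*), against 33.5% and 22.6%. For a single gene in 1 genotype, an exact permutation test (two-sided) of 3 libraries against 3 cannot give a p below 0.1, and every one of these groups that did not overlap had that value.

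No member was shown to respond differently in the 2 genotypes. In the fit of the difference between the responses 0% of genes passed (limma), with 659 of 15583 genes, 1 of them a member, at an unadjusted p under 0.05. With the mouse as a block 0 genes passed as well, and 2293 of 15583 genes, 2 of them members, had such a p. *Bcl2l11* had the largest difference among members, -0.84 for *T/F* minus *D/F* (95% interval -1.92 to 0.23, limma adjusted p = 1.00). With the mouse as a block its interval was -1.34 to -0.35 and its adjusted p 0.210, and that of *Bak1*, with a difference of 0.48, was 0.171. *Bid* differed by 0.51 (limma adjusted p = 1.00). The changes of these 3 transcripts were thus larger in *D/F* by the estimates, with no call, and the dose was also higher there.

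The genotypes were next compared under the same treatment. With DMSO no member passed, with 0.0328% of 15265 genes called (limma), and the widest estimates among members were 0.51 for *Bcl2l11* (95% interval -0.43 to 1.44) and 0.45 for *Pmaip1* (-0.03 to 0.93), both higher in *T/F*. With CCS1477 again no member passed, when 0.0329% of 15199 genes did. The largest values were then those of *Pmaip1* (0.68, limma adjusted p = 0.294), *Bak1* (0.57, 0.365) and *Bid* (0.39, 0.447), all higher in *T/F*. At an unadjusted p under 0.05 (limma) there were 0 members with DMSO, when 939 of 15265 genes had such a p. With CCS1477, where the dose differed too, there were 3 members, when 1643 of 15199 genes did.

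The prosurvival genes were taken as the counterpart of this set. Of 8 listed, 5 were in the table. Over both genotypes 2 were called higher (*Mcl1* and *Bcl2l2*) and 2 lower (*Bcl2* and *Bcl2a1b*), against 25.8% and 19.6% of all genes, with *Bcl2l1* not called. Their median log2 fold change was -0.07. *Bcl2* fell by 2.41 on the log2 scale in *D/F* and by 2.24 in *T/F* (limma adjusted p = 0.00889 and 0.0014). *Mcl1*, the partner of NOXA, went up by 0.25 over both genotypes (limma adjusted p = 0.0314). *Bcl2a1b* has near-identical copies that may share its reads, so its value is uncertain.

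With *Bcl2l11* higher and *Bcl2* lower, the ratio of their TPM shifted in every mouse. *D/F* mice had 0.765, 0.787 and 1.14 *Bcl2l11* transcripts per *Bcl2* transcript with DMSO and 13.0, 14.4 and 12.5 with CCS1477. *T/F* mice had 0.881, 1.99 and 1.66 with DMSO and 8.52, 13.8 and 9.95 with CCS1477. The groups were far apart in both genotypes, and in each mouse the fall of *Bcl2*, to 0.128 to 0.202 of its DMSO level, was the larger factor. These ratios are of transcripts and were not tested.

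The summed TPM of the 8 members was lower with CCS1477 in all 6 mice, by much less than these ratios moved. It was 396 to 426 TPM with DMSO and 366 to 383 TPM with CCS1477 in *D/F*, and 435 to 471 and 397 to 450 TPM in *T/F*, so the groups were separate in *D/F* and overlapped in *T/F*. Divided by the sum of the 5 prosurvival genes, it was 1.19 to 1.82 and then 1.56 to 1.71 in *D/F*, and 1.47 to 1.90 and then 1.47 to 1.84 in *T/F*, with overlap in both. The 6 BH3-only transcripts alone, divided by the same sum, went from 0.634 to 0.737 to 0.791 to 0.941 in *D/F*, higher in all 3 mice with separate groups, and from 0.722 to 0.764 to 0.735 to 0.837 in *T/F*, higher in 2 of 3 mice with overlap. The prosurvival sum includes *Bcl2a1b*, whose value is uncertain. In *D/F* that gene went from 18.9, 68.3 and 25.8 TPM to 2.88, 9.16 and 7.83 TPM. With *Bcl2a1b* left out of the sum, the *D/F* groups of the BH3-only ratio overlap and replicate 1 is not higher, so their separation rests on that gene. None of these ratios was tested. Within the BH3-only sum, *Bcl2l11* went from 13.5 to 22.7% of the transcripts to 37.1 to 48.5% in *D/F*, and from 17.2 to 29.8% to 29.3 to 37.9% in *T/F*. *Bid* went from 34.3 to 47.1% to 12.5 to 19.2% in *D/F*, and from 24.9 to 39.8% to 17.4 to 24.7% in *T/F*. With DMSO *Bid* was thus the most abundant BH3-only transcript in all *D/F* libraries and in *T/F* replicates 1 and 2, and *Bcl2l11* in *T/F* replicate 3. With CCS1477 *Bcl2l11* was the most abundant in every library of both genotypes.

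**Figure D3:**
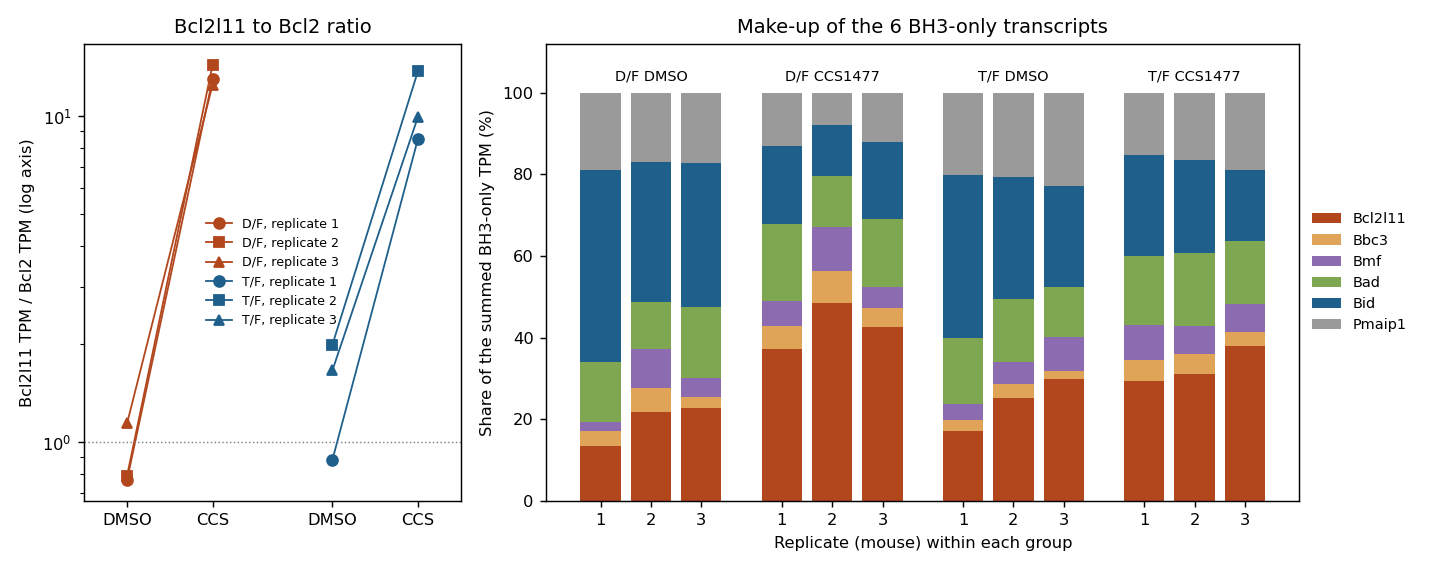
Left, TPM of *Bcl2l11* divided by TPM of *Bcl2* per mouse (log axis, dotted line at 1) with DMSO and CCS1477 (CCS). Right, share (%) of each of the 6 BH3-only transcripts in their summed TPM, 1 bar per library: the *Bcl2l11* share was 13.5 to 29.8% with DMSO and 29.3 to 48.5% with CCS1477.

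Genes around the members were read from lists of their regulators, binding partners and downstream effectors. Of 11 regulators tested, 5 were called higher and 2 lower over both genotypes, against 25.8% and 19.6% of all genes. Their median log2 fold change was 0.0032, against 0.07 over all genes. *Foxo1* rose by 1.71 (*D/F*) and 1.41 (*T/F*) on the log2 scale, from 2.82 to 5.99 TPM in *D/F* with DMSO to 13.5 to 17.5 TPM with CCS1477 (limma adjusted p = 0.0162 and 0.0015). *Foxo4* rose by 0.89 and 0.87 (0.0466 and 0.00112). *Trp53*, whose protein p53 activates *Bbc3*, *Pmaip1* and *Bax*, fell by 0.77 in *D/F* and by 0.52 in *T/F* (limma adjusted p = 0.0476 and 0.00658). The other calls over both genotypes were *Foxo3*, *Mdm2* and *Ddit3* (the last with an adjusted p of 0.0715 from limma with the mouse as a block), higher, and *Myc*, which fell by 4.21 in *D/F* and by 3.45 in *T/F*.

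Of 7 downstream genes, 4 were higher and 1 lower over both genotypes (limma), against 25.8% and 19.6% of all genes. Their median log2 fold change was 0.33. *Diablo*, an antagonist of inhibitor of apoptosis proteins, rose by 0.70 in *D/F* and 0.56 in *T/F*, and *Htra2*, a mitochondrial protease that antagonizes the same proteins, fell by 1.30 and by 1.11, each called in both genotypes. *Casp9*, the initiator caspase of the mitochondrial pathway, *Apaf1*, the scaffold that activates it, and *Xiap*, a caspase inhibitor, were the other genes called higher. In *T/F*, *Casp9* was higher in 2 mice and lower in 1, and the groups overlapped. *Cycs*, which encodes cytochrome c, was not called over both genotypes but was lower in all 6 mice, at 0.668 to 0.795 of its DMSO level. Its groups were separate in *T/F* and overlapped in *D/F*. With the mouse as a block, 5 downstream genes were higher and 2 lower over both genotypes, against 34.5% and 25.9% of all genes. Of 6 partners, *Dynll2*, the dynein light chain that holds BMF, was higher (0.79) and *Vdac2*, the channel that binds BAK, was lower (-0.53), and *Vdac2* and *Bak1* were thus both lower. Among 5 other family genes, *Bcl2l14* (-1.38) and *Bcl2l12* (-0.50) fell and the mitophagy receptor gene *Bnip3l* (1.04) rose. The medians were 0.12 for the partners and -0.0026 for the other family genes. No test of a list was made.

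Counted within *D/F*, 0 prosurvival genes were higher and 1 lower, with 2 and 2 of the regulators, 1 and 1 of the downstream genes, 1 and 0 of the partners and 0 and 2 of the other family genes. Under the block these became 0 and 2, 3 and 2, 4 and 2, 1 and 1, and 2 and 2. In *T/F* the counts were 0 and 1 prosurvival, 4 and 2 regulator, 3 and 2 downstream, 3 and 1 partner and 1 and 2 other family genes, and with the block they were 2 and 2, 4 and 3, 4 and 2, 3 and 1, and 2 and 2. The shares of all genes called in each of these fits are those given for the members.

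**Figure D4:**
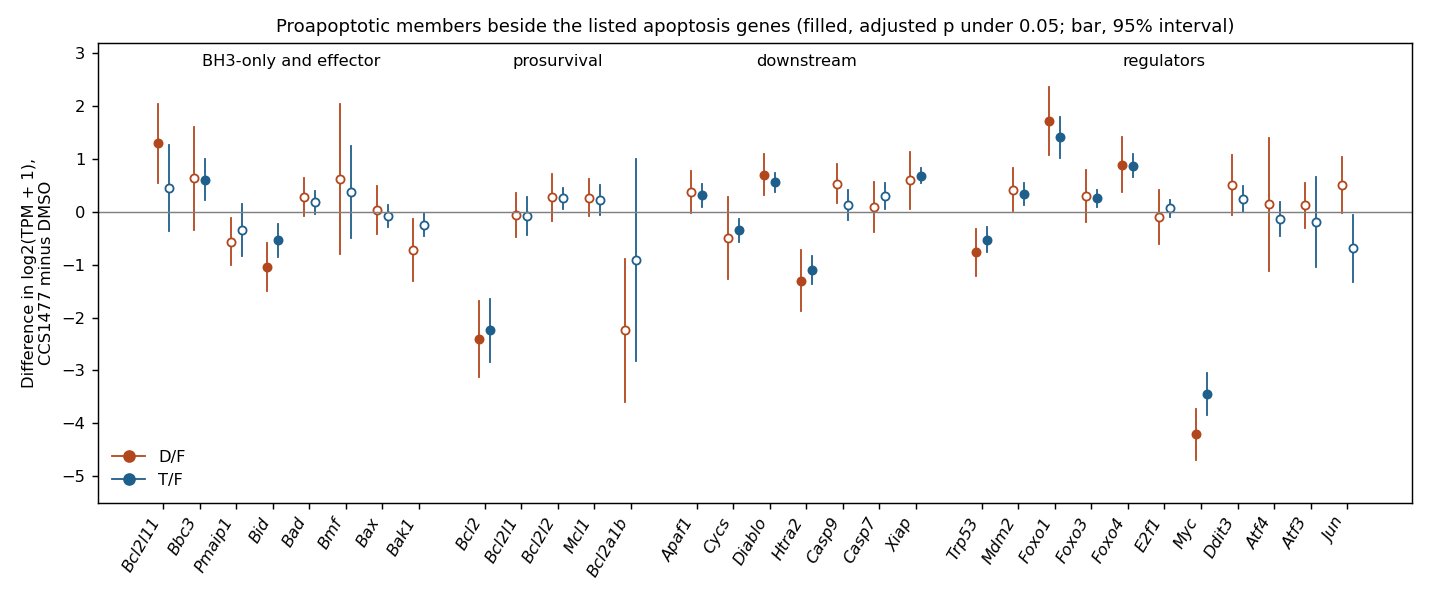
Difference in log2(TPM + 1) between CCS1477 and DMSO (y axis) in *D/F* and *T/F* cells for the 8 members and for the prosurvival, downstream and regulator genes tested, with limma 95% intervals as bars and filled points for an adjusted p under 0.05. *Myc* and *Bcl2* lie far below 0 in both genotypes, and the 8 members lie between -1.04 and 1.30.

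Over the 12 libraries, the genes whose log2(TPM + 1) was most like that of *Bcl2l11*, among the 11603 genes whose mean reached 5 TPM, were *Aptx* (Pearson's r = 0.964), *Ric1* (0.963), *Usp12* (0.961), *Stk40* (0.957) and *Fyn* (0.954). Those most like *Bid* were *Arhgef6* (0.975), *Syce2*, *Tm6sf1*, *Cd33* and *Mlkl* (0.961 to 0.963). *Bcl2l11* and *Bid* themselves ran opposite to each other (r = -0.837), *Bid* ran with *Bak1* (0.781) and *Bcl2l11* with *Bmf* (0.782). These are descriptions over libraries that share mice and treatment.

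Markers of cell types moved with CCS1477 as well. The summed TPM of 8 myeloid progenitor markers was 3311 to 8825 with DMSO and 854 to 3835 with CCS1477 in *D/F*, and 3677 to 5585 and 1518 to 2662 in *T/F*. The 6 neutrophil markers summed to 2240 to 7372 and 1298 to 7336 in *D/F*, and 2029 to 6112 and 2124 to 5578 in *T/F*. That sum is mostly *S100a8* and *S100a9*. *Camp* and *Mmp8* were lower with CCS1477 in all 6 mice, at 0.113 to 0.578 and 0.0506 to 0.361 of their DMSO levels, and *Ly6g* was lower in all 6 as well. The other neutrophil markers did not follow them. *Ltf* was higher in 2 of 3 *D/F* mice and in all 3 *T/F* mice. *S100a9* was higher in 2 of 3 mice of each genotype, and *S100a8* in 1 of 3. Of 4 B cell markers 2 were in the table (10.8 to 23.2 TPM with DMSO and 4.13 to 9.54 TPM with CCS1477 in *D/F*, 16.8 to 20.5 and 11.3 to 14.2 TPM in *T/F*). Their sum is mostly *Cd79b*, which was lower in all 6 mice. *Pax5*, at 2.38 TPM or less in every library, was higher in all 3 *D/F* mice and lower in all 3 *T/F* mice. Of 6 T and NK cell markers 3 were in the table, at 15.8 to 25.7 TPM with DMSO and 13.8 to 23.2 TPM with CCS1477, and *Cd3e* was not. The 4 macrophage and dendritic markers in the table summed to 13.9 to 50.4 TPM with DMSO and 6.23 to 19.6 TPM with CCS1477, and the 4 mast cell and basophil markers to 42.5 to 183 TPM and 18.8 to 44.0 TPM. The 5 erythroid markers in the table summed to 12.05 to 30.4 TPM with DMSO and 10.1 to 25.5 TPM with CCS1477, and the 3 megakaryocyte markers to 32.6 to 199 TPM and 20.1 to 63.9 TPM, both lower in all 6 mice. Single markers did not all follow these sums. *Alas2* was higher in 1 of 3 mice of each genotype, and *Klf1* was higher in 2 of 3 *D/F* mice and lower in all 3 *T/F* mice. The part of these shifts in the changes of the 8 transcripts was not tested.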

How the data were processed

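RNA from 12 libraries of c-Kit+ splenocytes was analysed. The authors deposited TPM per Ensembl gene, labelled as kallisto output on mm10 and processed in AltAnalyze according to the methods; kallisto's version, annotation and strand setting are not given in the sources used here. Every gene of the table exceeds 2.00 TPM in at least 1 library, so low genes such as those at 0 had been left out before deposit, and libraries sum to 914204 to 931697 TPM. TPM keeps no read depth, so precision is the spread between mice.

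Symbols were matched for 15252 of 15651 identifiers. Positions come from GENCODE vM21 (GRCm38) and promoters from RefSeq (GRCm38.p6). limma 3.58.1 in R 4.3.3 was fitted to log2(TPM + 1) of genes whose mean reached 1 TPM in a compared group, with two-sided p-values adjusted by Benjamini-Hochberg over all genes, so a fold change of a low gene is understated. Fits took the groups compared, with genotype as a covariate over both. Scripts were tested on simulated data. Named genes are the 9 members, the listed pathway and marker genes and, for the members with the largest rise and fall, the 5 most correlated genes. Some listed genes are not reported here. The members and lists were chosen with earlier results of these data known.

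Samples with the same replicate number came from the same mouse by the labels. After subtraction of group means, their correlation across genes was 0.337 to 0.650, against at most 0.130 between mice. Deviations within a group cancel out, so a positive value within a mouse lowers those between mice, which are not an independent baseline. Alternatives were median rescaling, a filter at 5 TPM or none, a pseudocount of 0.1, quantile normalization, eBayes with a trend, the mouse as a block, a fit of all 4 groups, a 2-fold limit and leaving out each mouse.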

Additional observations from a re-analysis of the deposited data

Results flagged for a closer look

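Among the listed genes other than markers, 2 regulators moved one way in every *D/F* mouse and the other way in every *T/F* mouse. *Jun*, a subunit of AP-1 and a known activator of *Bcl2l11* in other cells, went from 10.8, 7.2 and 9.3 TPM to 15.5, 14.3 and 10.2 TPM in *D/F* and from 9.2, 18.0 and 13.8 TPM to 6.4, 9.8 and 7.5 TPM in *T/F*. The difference between the responses, *T/F* minus *D/F*, was -1.19 on the log2 scale, with an adjusted p of 1.00 from limma and of 0.171 with the mouse as a block. *Atf3* went from 2.5, 2.0 and 3.1 TPM to 2.6, 2.6 and 3.4 TPM in *D/F* and from 2.2, 4.8 and 5.5 TPM to 2.0, 4.2 and 4.2 TPM in *T/F*, a difference of -0.32 (limma adjusted p = 1.00 and 0.284 with the mouse as a block). No proapoptotic member showed such a split. The markers *Pax5* and *Cd4* showed it as well, and the share of all genes that did was not counted, so these 2 regulators have no background. No test for a single outlying value was made in groups of 3.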

How the results depend on the processing

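Estimates of the 8 members in the 6 comparisons kept their direction in all but 17 of the alternatives, and those concerned *Bax*, *Bbc3*, *Bmf* and *Bak1* where they were not called. *Bax* reversed in *D/F* with median rescaling (-0.0011), over both genotypes with quantile normalization (0.041), and on leaving out a mouse (-0.045 to 0.11 in *D/F*, -0.064 to 0.0069 over both and -0.010 to 0.15 under CCS1477). Leaving out a mouse also turned the difference between responses of *Bbc3* (-0.15 to 0.069) and *Bmf* (-0.62 to 0.16), and the genotype difference under DMSO of *Bbc3* (-0.59 to 0.082), *Bmf* (-0.13 to 0.94) and *Bak1* (-0.093 to 0.20) and under CCS1477 of *Bmf* (-0.14 to 0.50). The replicate block, with the mouse as a term, called 4 members in *D/F*, 4 in *T/F* and 6098 genes in *D/F*. The fit of all 4 groups called 4 and 1 members, 4940 genes in *D/F*, 3713 in *T/F*, and 20 under DMSO and 71 under CCS1477 between genotypes. A pseudocount of 0.1 called 1 member in *D/F*, losing *Bcl2l11*, and quantile normalization 1 in *T/F*, losing *Bbc3* as the fit of all 4 groups did, 2839 genes in *D/F* and 9 between genotypes under DMSO. A filter at 5 TPM also gave 9 there, and eBayes with a trend 11 under CCS1477. Above 2-fold, 0 members were called in *T/F* and 0 over both, with 1128, 1118 and 1371 genes in *D/F*, in *T/F* and over both. On leaving out a mouse, members called ranged from 0 to 4 in *D/F*, 0 to 1 in *T/F* and 3 to 5 over both, and genes from 0 to 3739, 3192 to 5122 and 5660 to 8546, and between genotypes from 4 to 9 under DMSO and 2 to 27 under CCS1477. In *D/F* the fits without 1 mouse all had the same number of samples, with 3739 genes called without replicate 2 and 0 without replicate 1 or 3. The cause of these shifts was not tested. No paired analysis was possible because the genotypes come from different mice, for the comparisons between genotypes. TPM without read numbers sets no limit of detection, and the precision rests on 3 mice a group.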
